A study of Lactuca sativa with 32 samples.

Results

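Lettuce (Lactuca sativa, a red oak leaf type) grown under an FTAZ:PCBM filter was compared with lettuce grown under clear glass, with light intensity adjusted in both and leaf RNA measured by sequencing. The 8 libraries, 4 of PC FTAZ:PCBM and 4 of PC Control, were taken by their sample titles from 32 in the series. FTAZ:PCBM is the light-absorbing blend of an organic photovoltaic filter, a semi-transparent layer that takes out part of the lamp spectrum before it reaches the leaf. PAR is photosynthetically active radiation, the light that drives photosynthesis, and PC marks the experiment in which it was controlled. The genes described are those that differed between the groups beyond a trend with exonic length, which was 1376 of 24483 tested genes.

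Both groups stood under ceramic metal halide and incandescent lamps, and the labels give the cover as the difference. Pots held 2 plants until a harvest at 3 weeks, and a final harvest followed at 5 weeks; the labels do not say from which harvest the leaves came. Leaf tissue came from 4 plants per treatment, and the RNA was poly-A selected. Plants grew in boxes and the labels do not say how many a treatment had, so the filter and the box cannot be told apart. The p-values below measure the spread between plants.

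Leaves read light through photoreceptors, among them phytochromes for red and far-red light and cryptochromes and phototropins for blue light. These signals and the supply of photosynthetic energy set the transcript levels of many leaf genes. Most plant genes are split by introns that splicing removes from the transcript, whereas transcripts of single-exon genes need no splicing.

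Total counts of the 8 libraries ranged from 48005751 to 48764530, so that a count of 3 corresponded to 0.0615 to 0.0625 CPM (counts scaled to a library total of 1000000, with TMM factors where levels are given). That floor covers counting error only. Log2 expression of plants within a group correlated at 0.9774 to 0.9846 under FTAZ:PCBM and at 0.9824 to 0.9866 under glass. The column headers of FTAZ:PCBM replicates 2 and 3 carry a letter that the other 2 lack, and its meaning is not given in the sources used here. The files give gene identifiers, exons and lengths but no product names, so the labelled tissue was not checked against leaf markers and most genes are given by identifier, structure and level. In bulk tissue, fewer cells of a type and less RNA per cell cannot be told apart.

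The fold change between filter and glass followed exonic length, the summed length of a gene's annotated exons. For each plant, the slope of its log2 CPM deviation per doubling of length was computed. Under FTAZ:PCBM the slopes were 0.127, 0.097, 0.063 and -0.008 in replicates 1 to 4. Under glass they were -0.019, -0.063, -0.129 and -0.069. The groups did not overlap, although FTAZ:PCBM replicate 4 lay close to glass replicate 1. The mean slopes were 0.070 ± 0.058 (SD, n = 4) and -0.070 ± 0.045 (SD, n = 4), a difference of 0.140 with an exact two-sided permutation p of 0.0286, the smallest that 4 against 4 allows.

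Without any correction, edgeR's quasi-likelihood test, adjusted by Benjamini-Hochberg, called 3847 genes (15.7% of those tested), 2280 higher (9.31%) and 1567 lower (6.40%) under the filter. Among the longest genes, of 2435 to 16570 bp, 29.8% were called higher and 0.572% lower. Among the shortest, of 68 to 987 bp, 1.28% were called higher and 14.0% lower. With a length trend fitted in every library and carried as an offset, the shares became 3.82% higher and 2.82% lower among the longest genes, and 2.30% and 1.71% among the shortest.

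**Figure D1:**
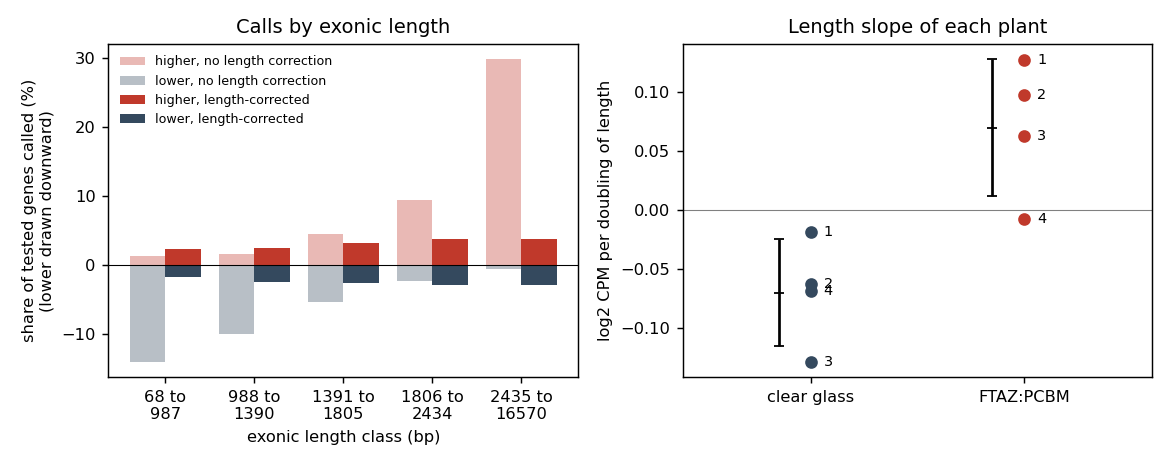
Left, share of tested genes called higher (up) or lower (down) under FTAZ:PCBM in 5 classes of exonic length in bp, without (pale) and with (dark) the length correction. Right, slope of log2 CPM per doubling of length in each plant (points, numbered by replicate) with mean and SD bars, n = 4; slopes ran from -0.129 to -0.019 under glass and from -0.008 to 0.127 under the filter.

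Beyond the length trend, 1376 genes differed (5.62% of those tested). Of these, 765 rose (3.12%) and 611 fell (2.50%) under FTAZ:PCBM. A called gene typically moved by 0.40 on the log2 scale in either direction (the median), or 1.32-fold. In all, 859 genes changed by under 0.5 on that scale and 96 by at least 1. Among those 96, 59 rose and 37 fell. Length-adjusted levels of the 2 groups did not overlap in 685 of the 765 risen and 536 of the 611 fallen genes, against 7.24% and 7.28% of all tested genes. The calls were made on these same libraries, so this separation largely follows from the call and is no further support. Of the called genes, 71.1% stood at or above 10 CPM on average, against 53.2% of the tested genes.

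The correction took away more calls than it added. In both fits, 1116 genes were called in the same direction, 81.1% of the corrected calls and 29.01% of the uncorrected ones. The correction alone gave 104 rises and 155 falls, and 1618 rises and 1112 falls were called only without it. The gene with opposite calls was LOC111898111, chosen after its values were seen, with 9581 bp of exons. Its CPM values were 109, 94.2, 85.0 and 97.4 under glass and 136, 137, 116 and 104 under the filter, so the groups overlapped in plain CPM. It was called higher by 0.36 (log2, SE 0.10, adjusted p = 0.0119) without the correction and lower, at -0.28 (SE 0.05, adjusted p = 0.00165), with it, by edgeR's quasi-likelihood test. With length treated in 30 bins it was not called, at an adjusted p of 0.572.

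Leaving out any plant but 1 lowered the number of calls by over 1.5 times. The count was 719 without FTAZ:PCBM replicate 1 and 902 without FTAZ:PCBM replicate 2. Without FTAZ:PCBM replicate 3 it was 867. Without glass replicates 1 to 4 it was 873, 792, 793 and 876. Without FTAZ:PCBM replicate 4 it was 1211. With only the 2 FTAZ:PCBM libraries that lack the header letter there were 388 calls, and with only the 2 that carry it 432; the rises outnumbered the falls in both, 211 to 177 and 281 to 151.

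Genes with a single exon rose more often than they fell. Exons were counted after overlapping exons of a gene were merged. Of 3243 tested single-exon genes, 163 rose and 39 fell, 5.03% and 1.20%, against 3.12% and 2.50% of all tested genes. Of genes with 2 exons, 3.56% rose and 2.20% fell. Of 6515 genes with 5 to 8 exons, 161 rose and 209 fell, 2.47% and 3.21%. Of 4199 genes with 9 to 15 exons, 94 rose and 126 fell, 2.24% and 3.00%.

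Single-exon genes had more rises than falls in every scaling, filter and model tried and in both header-letter subsets. Among these were DESeq2's scaling (171 and 37) and no length correction (227 and 127). Rises also outnumbered falls among all tested genes in each of these settings. Without the correction, the 227 rises among 3243 single-exon genes were a smaller share than the 9.31% of all tested genes. The share of single-exon genes that fell was smaller too, at 3.92% against 6.40%. For genes of 9 to 15 exons the order turned without the length correction, to 544 rises and 187 falls. With only the libraries that carry the header letter, 57 genes of 5 to 8 exons rose and 52 fell, and 34 of 9 to 15 exons rose and 32 fell. Genes of 16 or more exons had 44 rises and 37 falls, an order that turned in the fit of only the compared groups (23 and 27), among genes of at least 5 CPM on average (44 and 52) and with the libraries that lack the header letter (6 and 10).

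The single-exon pattern was present within the shorter length classes. Among genes of 68 to 987 bp, 48 of 1097 single-exon genes rose and 16 fell (4.38% and 1.46%). The shares of all genes in that class were 2.30% and 1.71%. Among genes of 988 to 1390 bp, 39 of 612 single-exon genes rose and 6 fell (6.37% and 0.980%). Of the 2178 with 5 or more exons, 28 rose and 63 fell (1.29% and 2.89%). The shares of all genes in that length class were 2.45% and 2.45%. Among genes of 1391 to 1805 bp, 44 of 613 single-exon genes rose and 6 fell (7.18% and 0.979%). Of the 2582 with 5 or more exons, 48 rose and 81 fell (1.86% and 3.14%), against 3.27% and 2.62% of that class. Among genes of 1806 to 2434 bp, 22 of 532 single-exon genes rose and 9 fell (4.14% and 1.69%), against 3.78% and 2.88% of that class. Genes of 2 to 4 exons rose more often there, at 5.83% (2.18% fell). In the longest class, 4.28% of genes with 2 to 4 exons rose and 2.23% fell. Of its 389 single-exon genes, 10 rose and 2 fell (2.57% and 0.514%), below the 3.82% and 2.82% of that class. The median log2 fold change of these single-exon genes was -0.038. Among protein-coding genes alone, 153 of 2998 single-exon genes rose and 38 fell (5.10% and 1.27%), against 3.26% and 2.59% of all protein-coding genes.

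The median deviation of all single-exon genes was computed in each plant on the length-adjusted log2 scale. It was 0.081, 0.059, 0.034 and -0.001 in FTAZ:PCBM replicates 1 to 4 and -0.018, -0.033, -0.007 and -0.044 under glass. The groups did not overlap, and FTAZ:PCBM replicate 4 was again next to the glass plants. Without the length correction the medians were 0.059, 0.041, 0.015 and 0.001 against -0.012, -0.022, 0.023 and -0.031, and the groups overlapped. The FTAZ:PCBM plants had the order of their length slopes, whose part in the single-exon result was not tested beyond the correction. In the height-controlled plants the corrected median log2 fold changes of the exon classes lay between -0.004 and 0.009.

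**Figure D2:**
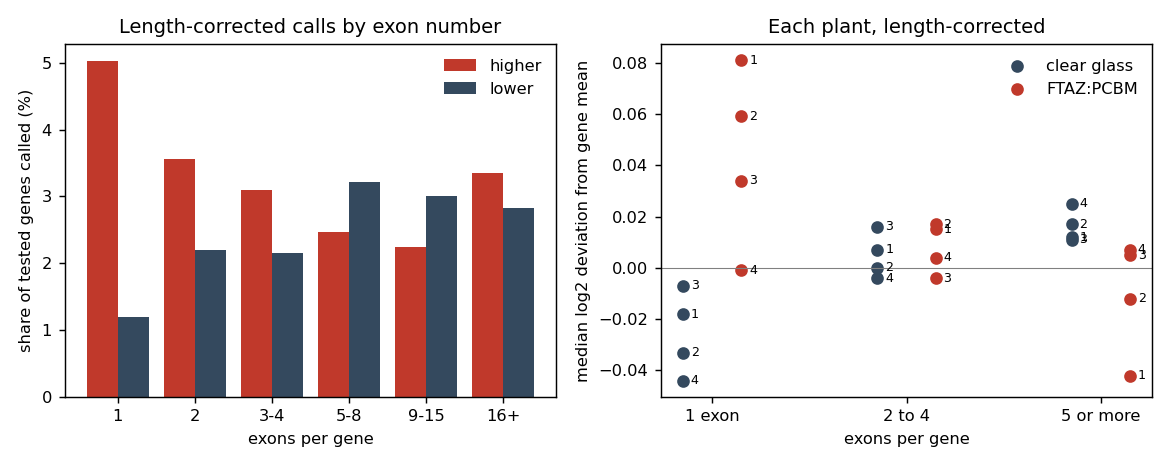
Left, share of tested genes called higher or lower under FTAZ:PCBM after length correction, by number of exons per gene; single-exon genes stand at 5.03% higher and 1.20% lower. Right, median length-adjusted log2 deviation from the gene mean in each plant (points numbered by replicate), glass in blue and FTAZ:PCBM in red.

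By RNA class, 708 of 21742 tested protein-coding genes rose and 563 fell (3.26% and 2.59%), near the 3.12% and 2.50% of all tested genes. Of 1698 long non-coding RNAs, transcripts with no long reading frame, 20 rose and 36 fell (1.18% and 2.12%), so both shares were below those of all tested genes. Their median log2 fold change was -0.056 against -0.014 over all tested genes, and in the height-controlled plants it was -0.061 against 0.002. Falls outnumbered rises among them in every scaling tried and without the correction (42 rises, 79 falls). Their order turned only with the 2 FTAZ:PCBM libraries that carry the header letter, at 8 rises and 7 falls. Over all tested genes the call shares followed level, from 0.681% higher and 0.611% lower under 1 CPM to 5.03% and 3.81% at 100 CPM or more. With a mean CPM of at least 5, 16 of 593 long non-coding RNAs rose and 21 fell, against 767 and 576 of all 15962 genes. The part of level in their low shares was not tested.

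Small nucleolar RNAs guide chemical modification of ribosomal RNA, and most lack a poly-A tail. Of 122 tested, 4 rose (3.28%, near the 3.12% of all tested genes) and 0 fell by edgeR's quasi-likelihood test. In that test 22 had an unadjusted p under 0.05, 2 of them with a lower level, against 5109 of all 24483 tested genes. DESeq2 called 6 small nucleolar RNAs risen and 0 fallen. The number risen depended on how the trend was drawn at short lengths, from 1 with a lowess span of 0.3 to 11 with a span of 0.8. The neighbours LOC111903813 and LOC111903810, of 96 and 101 bp, are named as 2 of the 4 and were chosen after their values were seen. LOC111903813 had 1.39, 1.39, 1.29 and 1.74 CPM under glass and 1.89, 2.45, 1.72 and 2.37 CPM under the filter, and the groups overlapped. It rose by 0.61 (log2, SE 0.16, adjusted p = 0.0229), and its call was lost without glass replicate 1, 2 or 3 or without FTAZ:PCBM replicate 2 or 4, at adjusted p up to 0.0773. It was also lost with a span of 0.3, no filter on low counts or only the compared groups (up to 0.0679). LOC111903810 rose by 0.45 (SE 0.12, adjusted p = 0.0269, edgeR's quasi-likelihood test), and was not called without glass replicate 3 or FTAZ:PCBM replicate 2, at adjusted p up to 0.123. Without the length correction it was not called either (0.37, adjusted p = 0.0587), nor with a span of 0.3, no filter or only the compared groups, at adjusted p up to 0.140. The other risen ones were LOC111900965 (0.58, adjusted p = 0.0465) and LOC111888762 (1.10, adjusted p = 0.0228). Both overlap the span of another gene on the same or the other strand, and whether exons overlap was not checked. The counts do not separate strands, so any read of the other gene that was counted to them cannot be told apart. LOC111900965 kept its call only without FTAZ:PCBM replicate 4 among the fits that left out a plant (adjusted p up to 0.147 in the others), and lost it without the length correction (adjusted p = 0.0908), with a span of 0.3, with no filter and with only the compared groups (up to 0.178). LOC111888762 lost its call without glass replicate 2, 3 or 4 or FTAZ:PCBM replicate 1 or 4 (adjusted p up to 0.0850) and with only the compared groups (0.0932), by edgeR's quasi-likelihood test.

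A ribosomal RNA entry of 156 bp, LOC111918867, was higher in all 4 filter plants, at 8.51, 7.65, 7.45 and 7.18 CPM against 6.44, 4.70, 5.92 and 5.27 CPM under glass. It rose by 0.59 (log2, SE 0.15, adjusted p = 0.0206 by edgeR's quasi-likelihood test), and the call was lost without glass replicate 2 or 4 or FTAZ:PCBM replicate 1, at adjusted p up to 0.0826. The chloroplast genome encodes part of the photosynthetic machinery, and 5 of its transfer and ribosomal RNA entries were tested. edgeR and DESeq2 called 0 of the 5, and 0 had an unadjusted p under 0.05. LasaCt002, the entry that spans the interval which in land plants holds matK, stood at 4.74, 5.11, 5.92 and 4.47 CPM under glass and at 5.95, 6.08, 6.26 and 6.31 CPM under the filter. Its corrected log2 difference was 0.15 (SE 0.20, adjusted p = 0.730), although the plain CPM ranges did not overlap. The others were LasaCt001 at -0.46, LasaCr001 at -0.32, LasaCr002 at 0.20 and LasaCr007 at -0.32, with adjusted p from 0.401 to 0.868 by edgeR's quasi-likelihood test.

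Genes were named by a rule: called in both fits in the same direction, at least 1 CPM on average, and with groups that overlap neither in CPM nor in adjusted CPM. It was met by 925 genes, 553 higher and 372 lower, which is 3.78% of those tested. That the groups of these genes do not overlap follows from the rule and is no further support. The 6 with the steepest rise and the 6 with the steepest fall are weakly expressed, with average levels of 1.07 to 6.45 CPM.

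LOC111886104, a protein-coding gene of 3 exons and 1879 bp (Lsat_Salinas_v7, NW_019680648.1:2128869-2130909), had the steepest rise of the genes that met the rule. It stood at 0, 0.0793, 0.191 and 0.0414 CPM under glass and at 0.569, 0.763, 4.71 and 2.19 CPM under the filter. Glass plants had 0, 4, 9 and 2 counts, below the floor of 3 in 2 of them. The corrected log2 fold change was 4.67 (SE 0.74, adjusted p = 0.000580 by edgeR's quasi-likelihood test), called in all 8 fits that left out a plant. A fitted fold change at counts this low depends on the prior count. The gene was expressed in the height-controlled plants, at 1.55 to 4.32 CPM under glass and 1.87 to 4.89 CPM under the filter.

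The next in order were also low under glass and uneven among the filter plants. LOC111897754 had 0.313, 1.98, 0.827 and 1.76 CPM under glass and 3.29, 2.71, 9.32 and 5.51 CPM under the filter, a rise of 2.08 (log2, SE 0.48, adjusted p = 0.0111) that was not called without FTAZ:PCBM replicate 3 (adjusted p = 0.0574). LOC111910637 had 1.47, 3.55, 2.21 and 2.46 CPM against 5.85, 5.34, 16.2 and 14.5 CPM, a rise of 2.07 (SE 0.48, adjusted p = 0.0107, edgeR's quasi-likelihood test). In both genes FTAZ:PCBM replicate 3 was highest and glass replicate 1 lowest, as in LOC111886104 and in LOC111880112. LOC111880112, a long non-coding RNA, rose by 1.95 (SE 0.55, adjusted p = 0.0348), and its call was lost without glass replicate 1, 2 or 3 or FTAZ:PCBM replicate 3 or 4, at adjusted p up to 0.123. Its level under glass was 0.157 to 1.16 CPM here and 10.3 to 19.7 CPM in the height-controlled plants.

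Among the 6, LOC111887747 had the least spread. Its levels were 0.470, 0.614, 0.742 and 0.744 CPM under glass and 1.97, 2.17, 2.70 and 1.24 CPM under the filter. It rose by 1.65 (log2, SE 0.31, adjusted p = 0.00211 by edgeR's quasi-likelihood test) and was called in all 8 fits that left out a plant. LOC111906292, which had no match in the gene table used for RNA classes, rose by 1.66 (SE 0.42, adjusted p = 0.0179). Its FTAZ:PCBM replicates 1 and 4, at 2.03 and 1.55 CPM, lay close to the highest glass plant at 1.47 CPM, and the call was lost without glass replicate 3 or 4 or FTAZ:PCBM replicate 2, at adjusted p up to 0.0984.

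LOC111913425, of 7 exons and 1664 bp, had the firmest of the steep falls. It stood at 7.44, 6.32, 4.90 and 5.58 CPM under glass and at 2.84, 3.01, 2.26 and 2.23 CPM under the filter, with separate groups as the rule requires. It fell by 1.23 on the log2 scale (SE 0.18, adjusted p = 0.000195), called in all 8 fits that left out a plant. LOC111877063, of 6 exons, had 7.62, 8.34, 7.70 and 5.93 CPM against 3.35, 3.25, 4.00 and 4.37 CPM and fell by 1.14 (SE 0.27, adjusted p = 0.0124, edgeR's quasi-likelihood test), also called without any of the plants.

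The steepest of the falls named rested on a single plant. LOC111901320 stood at 5.25 CPM in glass replicate 1 and at 0.515, 0.827 and 0.806 CPM in the other glass plants, against 0.244, 0.381, 0.230 and 0.392 CPM under the filter. Its log2 fold change of -2.49 (adjusted p = 0.0103) became -1.08 (adjusted p = 0.183) without glass replicate 1. LOC111911569 fell by 1.93 (log2, SE 0.58, adjusted p = 0.0454), and only the fit without glass replicate 1 kept its call, with adjusted p up to 0.107 in the others. LOC111898254 fell by 1.25 (adjusted p = 0.0153) and was not called without glass replicate 3 or FTAZ:PCBM replicate 1, at adjusted p up to 0.0671. LOC111902416, a single-exon gene of 601 bp, fell by 1.14 (adjusted p = 0.0328), a call lost without glass replicate 1 or 2 or FTAZ:PCBM replicate 1, 2 or 3, at adjusted p up to 0.0944 by edgeR's quasi-likelihood test.

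**Figure D3:**
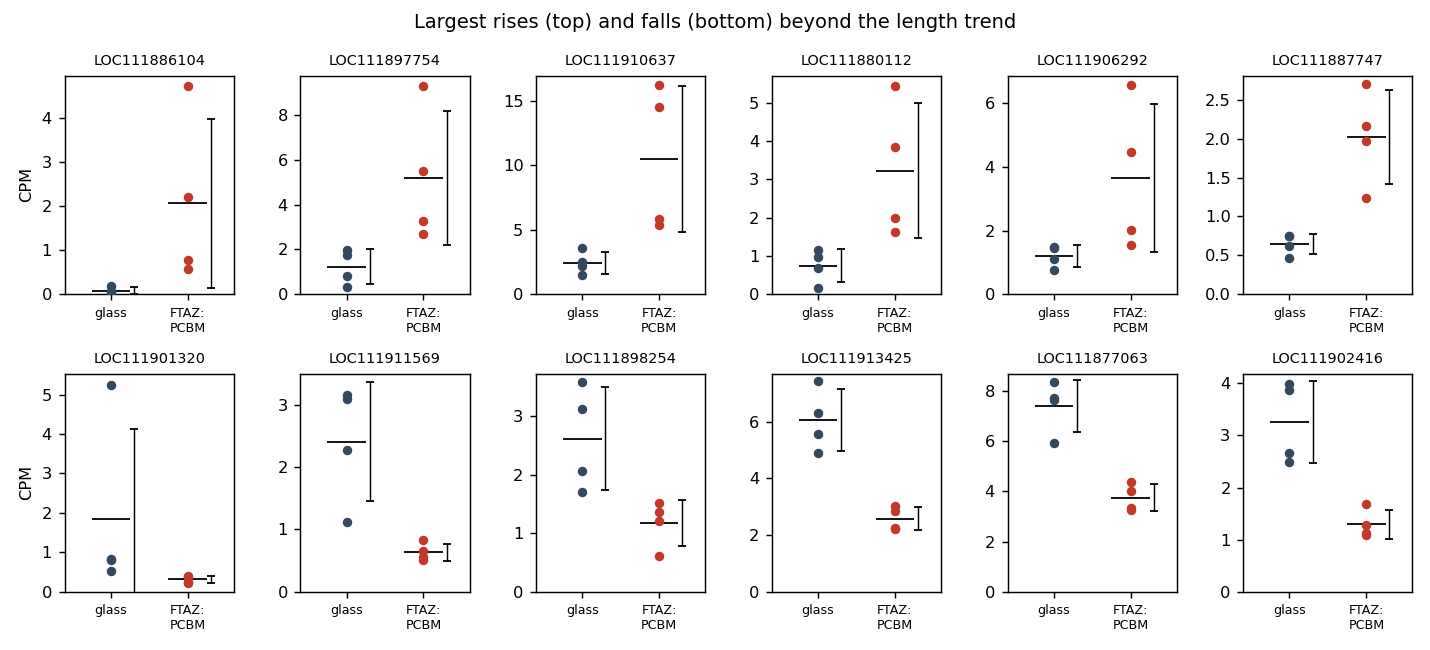
CPM of each plant (points) under glass and FTAZ:PCBM for the 6 steepest rises (top) and falls (bottom) that met the naming rule, with mean and SD (n = 4; the glass bars of LOC111886104 and LOC111901320 are cut at 0). The groups are separate in every panel because the rule requires it, and LOC111901320 shows a lone glass plant at 5.25 CPM.

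Among the abundant genes named by the rule, the length-corrected changes were 1.27-fold to 1.72-fold. LOC111913734, of 10 exons and 3440 bp, had 542, 1088, 929 and 1088 CPM under glass and 1611, 1338, 2127 and 2242 CPM under the filter. It rose by 0.78 (log2, SE 0.22, adjusted p = 0.0305) with the length correction and by 1.00 without it, by edgeR's quasi-likelihood test. The corrected rise was not called without glass replicate 1 or 3 or FTAZ:PCBM replicate 3 or 4, at adjusted p up to 0.108. LOC111902198, the most abundant of the genes that met the rule at 1563 CPM on average, rose by 0.35 (adjusted p = 0.0475). LOC111877910 rose by 0.66 (adjusted p = 0.0461). Each of these kept its call in 1 of the 8 fits that left out a plant, LOC111902198 without glass replicate 1 and LOC111877910 without glass replicate 3, with adjusted p up to 0.173 and 0.137 in the rest.

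LOC111885899, of 2 exons and 1066 bp, led the abundant genes that fell. It had 533, 564, 635 and 466 CPM under glass and 413, 324, 273 and 334 CPM under the filter, with separate groups as the rule requires. It fell by 0.59 (log2, SE 0.14, adjusted p = 0.0116 by edgeR's quasi-likelihood test) and was not called without FTAZ:PCBM replicate 3 (adjusted p = 0.0507). LOC111904494 fell by 0.42 (adjusted p = 0.0338), called only without glass replicate 1, with adjusted p up to 0.138 in the other fits. LOC111918909 fell by 0.43 (adjusted p = 0.0285), and the call was lost without glass replicate 1, 2 or 3 or FTAZ:PCBM replicate 2 or 3, at adjusted p up to 0.117.

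Some of the 18 genes named by the rule also lost their call under a setting that kept all plants, in edgeR's quasi-likelihood test. With only the compared groups fitted these were LOC111880112, LOC111906292, LOC111901320, LOC111898254, LOC111902198 and LOC111913734, at adjusted p up to 0.106. With the replicate block they were LOC111880112, LOC111902198 and LOC111911569 (0.0548 for the last). With no filter on low counts they were LOC111902198 and LOC111877910 (0.0514 for the last).

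The 4 genes in each direction with the smallest adjusted p were chosen after their values were seen, and averaged 4.32 to 80.0 CPM. LOC111889306 (10 exons, NW_019681416.1:539750-548731) stood at 28.5, 23.7, 23.8 and 24.5 CPM under glass and at 61.7, 56.9, 53.1 and 51.3 CPM under the filter, 1.94-fold after correction. Its log2 rise was 0.95 (SE 0.10, adjusted p = 3.15e-06 by edgeR's quasi-likelihood test). LOC111911736, which overlaps another gene, had 25.97, 23.03, 25.8 and 25.2 CPM against 61.6, 55.3, 53.1 and 47.02 CPM, a rise of 0.98 (SE 0.11, adjusted p = 1.32e-05). Both were near a doubling in every filter plant, with no overlap with glass.

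LOC111879574, a single-exon gene of 725 bp, had 9.50, 10.6, 12.2 and 11.7 CPM under glass and 17.7, 17.9, 19.2 and 19.7 CPM under the filter, a log2 rise of 0.94 (SE 0.11, adjusted p = 8.31e-06). LOC111918243, of 15 exons, had 18.1, 18.5, 17.8 and 20.8 CPM against 32.5, 33.4, 31.7 and 30.3 CPM, a log2 rise of 0.69 (SE 0.08, adjusted p = 3.13e-05 by edgeR's quasi-likelihood test). The groups of both were separate, and all 4 risen genes were called in all 8 fits that left out a plant.

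LOC111897984, of 6 exons, fell from 18.97, 20.4, 19.7 and 19.2 CPM to 11.7, 13.7, 12.9 and 15.5 CPM, a log2 change of -0.47 (SE 0.06, adjusted p = 0.000104). LOC111881631, of 8 exons, fell from 30.1, 28.3, 29.9 and 29.96 CPM to 19.1, 18.5, 19.1 and 21.9 CPM, a log2 change of -0.56 (SE 0.08, adjusted p = 0.000104, edgeR's quasi-likelihood test). In both, every filter plant was below every glass plant. LOC111906246, a gene of 13 exons and 5215 bp, depended on the length correction. Its plain CPM values were 87.9, 81.6, 82.2 and 84.9 under glass and 79.4, 75.6, 78.8 and 69.1 under the filter, and its log2 change was -0.54 (adjusted p = 3.35e-06) with the correction and -0.15 (adjusted p = 0.0809) without it. LOC111913425, described above, completes the 4. All 4 kept their calls in all 8 fits that left out a plant.

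Neighbouring genes on a scaffold were compared next. Neighbours are tested genes that follow each other, so an untested gene can lie between them. Among 22424 pairs of tested neighbours, both genes rose in 38 and both fell in 27, while 33 had opposite calls. Of all tested genes 3.12% rose and 2.50% fell, and whether the pairs exceed what these shares give was not tested. There were 3 runs of 3 genes called in the same direction, whose genes were chosen after their values were seen. Members of such runs can be near-identical copies, and since a read that maps to several places was not counted under the counter's defaults, their levels are uncertain.

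The first run, on NW_019681416.1 from 539750 to 744567, rose together. It holds LOC111889306, LOC111889314 with a single exon and LOC111889313 with 17 exons. Their log2 rises were 0.95, 0.36 (adjusted p = 0.0446) and 0.26 (adjusted p = 0.0115) by edgeR's quasi-likelihood test. LOC111889314 stood at 23.2, 21.9, 25.8 and 21.1 CPM under glass and at 35.7, 29.3, 30.9 and 28.97 CPM under the filter, and LOC111889313 at 23.9, 24.2, 22.4 and 22.3 CPM against 31.9, 36.6, 30.9 and 27.5 CPM. LOC111889314 was called only without glass replicate 3 or FTAZ:PCBM replicate 2, with adjusted p up to 0.141 in the other fits, and LOC111889313 was not called without FTAZ:PCBM replicate 2 (adjusted p = 0.0516). With the replicate block LOC111889314 was not called (0.0541), and with only the compared groups LOC111889313 was not (0.0567).

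The second run, on NW_019683044.1 from 216013 to 494583, fell together, and its genes LOC111895550, LOC111895554 and LOC111895551 each have 3 exons and 988 to 1069 bp. That stretch holds 4 genes, of which these 3 were tested. LOC111895551 had 29.8, 33.9, 35.4 and 37.8 CPM under glass and 15.1, 22.7, 18.9 and 20.1 CPM under the filter, a log2 fall with a value of -0.71 (SE 0.10, adjusted p = 0.000198). LOC111895554 had 14.4, 16.2, 17.3 and 16.3 CPM against 6.38, 11.1, 10.2 and 10.8 CPM, a value of -0.62 (SE 0.13, adjusted p = 0.00691, edgeR's quasi-likelihood test). LOC111895550 had 39.3, 41.9, 41.1 and 44.5 CPM against 25.3, 33.5, 26.97 and 28.9 CPM, a value of -0.43 (adjusted p = 0.0185). FTAZ:PCBM replicate 1 was the lowest plant for all 3 genes, and LOC111895550 was not called without it, without FTAZ:PCBM replicate 3 or without glass replicate 4, at adjusted p up to 0.0684.

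The third run, on NW_019677106.1 from 4283513 to 4330239, fell too, and LOC111916389, LOC111916390 and LOC111916391 each have 4 exons and 1149 to 1178 bp. LOC111916389 had 129, 107, 125 and 117 CPM under glass and 77.7, 52.4, 84.2 and 63.1 CPM under the filter, a log2 change of -0.70 (SE 0.15, adjusted p = 0.00659 by edgeR's quasi-likelihood test), called in all 8 fits that left out a plant. LOC111916391 had 67.0, 43.1, 55.0 and 46.2 CPM against 31.7, 31.8, 31.2 and 28.04 CPM, and LOC111916390 had 43.2, 27.6, 32.2 and 28.4 CPM against 20.2, 19.8, 21.1 and 18.3 CPM. These fell by 0.69 (adjusted p = 0.0237) and 0.63 (adjusted p = 0.0287). LOC111916391 was not called without glass replicate 1 or 3 or FTAZ:PCBM replicate 3 or 4, at adjusted p up to 0.105. LOC111916390 was called only without glass replicate 2 or 4, with adjusted p up to 0.140 in the other fits.

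**Figure D4:**
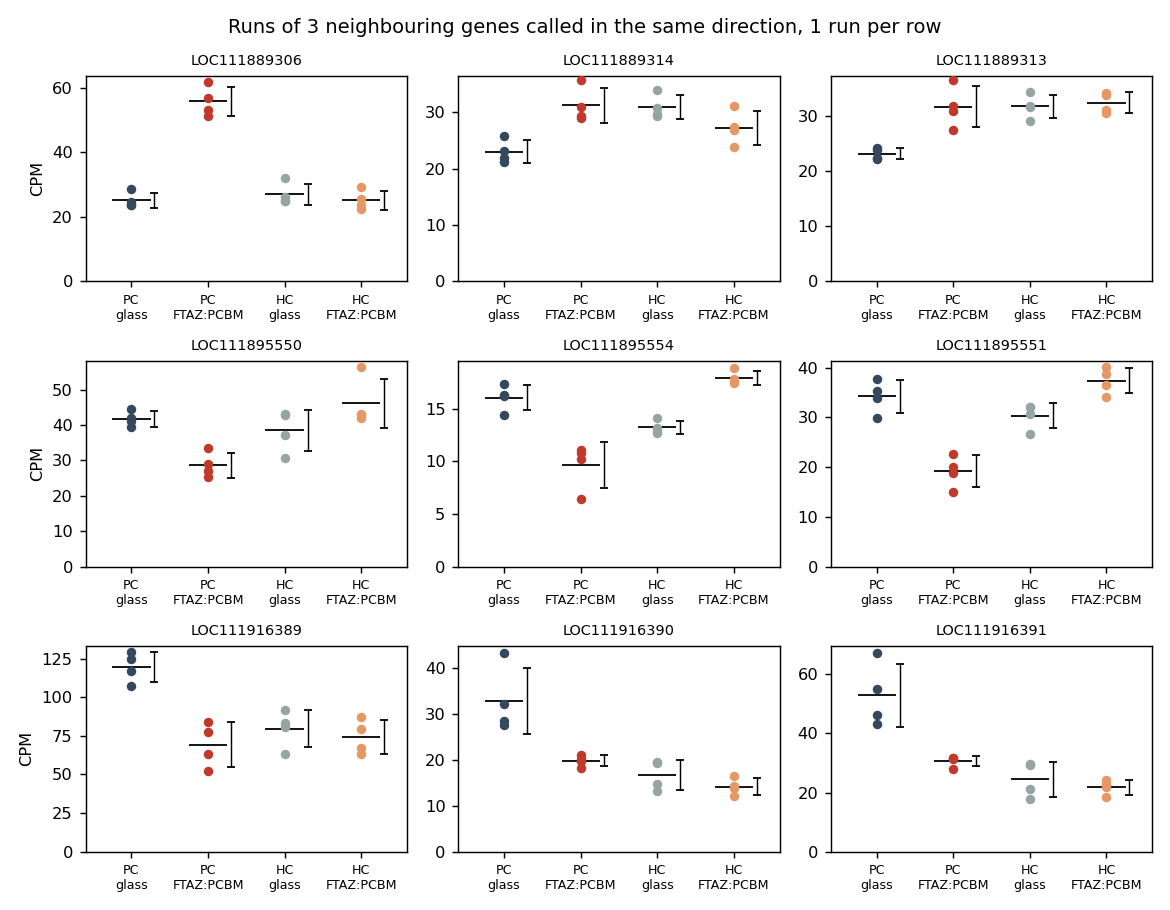
CPM of each plant (points) with mean and SD (n = 4) for 3 runs of neighbouring tested genes, 1 run per row, under glass and FTAZ:PCBM in the PAR-controlled (PC) and height-controlled (HC) plants. The middle row is lower under the filter in PC, as LOC111895551 shows at 15.1 to 22.7 against 29.8 to 37.8 CPM. It has the opposite sign in HC, where its genes were not called.

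The same filter was compared with glass in other plants, grown without adjusted light intensity (height controlled, HC). There 9 genes were called (0.0368% of those tested), 1 higher (0.00408%) and 8 lower (0.0327%), by edgeR's quasi-likelihood test with the length offset, 1756 had an unadjusted p under 0.05, and DESeq2 called 46. The HC count was 0 without HC glass replicate 1 or 2 or HC FTAZ:PCBM replicate 2 or 3 (1297 to 1630 genes at an unadjusted p under 0.05), 1 and 2 without HC FTAZ:PCBM replicates 1 and 4, 4 without HC glass replicate 3 and 23 without HC glass replicate 4. The length slopes differed by -0.038 between filter and glass, with an exact permutation p of 0.200. Of the genes risen in PC, 64.8% had a positive fold change in HC against 50.8% of all tested genes, and of those fallen in PC 67.8% had a negative one against 49.2%. The median log2 fold changes in HC were 0.05 and -0.06, against 0.40 and -0.42 in PC. Picking genes by their PC call favours larger changes in PC, so these sizes do not compare the experiments evenly.

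The genes called in both experiments numbered 4, all in the same direction, and were chosen after their values were seen. LOC111916659, of 2 exons, fell from 19.1, 20.6, 18.1 and 19.997 CPM to 8.53, 12.8, 13.5 and 13.02 CPM in PC, and from 15.2, 16.4, 14.4 and 12.2 CPM to 10.2, 9.14, 8.26 and 9.78 CPM in HC. Its log2 changes were -0.58 (adjusted p = 0.00116) and -0.67 (adjusted p = 0.00793) by edgeR's quasi-likelihood test. LOC111891875, of 7 exons, fell from 6.78, 6.82, 5.98 and 5.79 CPM to 4.06, 3.71, 3.66 and 2.74 CPM in PC, and from 6.68, 7.44, 5.11 and 5.81 CPM to 3.29, 3.66, 3.06 and 3.58 CPM in HC. In both genes no filter plant reached a glass plant of its own experiment. LOC111905405 changed by -0.25 in PC and -0.43 in HC, and LOC111907530 rose by 0.38 and 0.51. In PC, LOC111907530 was not called without glass replicate 1 or FTAZ:PCBM replicate 1 (adjusted p up to 0.0792), and LOC111905405 was called only without FTAZ:PCBM replicate 1 or 3 (adjusted p up to 0.107 in the others).

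The effect of the filter differed between the experiments for 126 genes (0.515% of those tested) in the interaction test of edgeR's quasi-likelihood model, and for 1127 (4.60%) without the length correction. Of the 126, 79 had risen and 41 had fallen in PC, and 6 were not called there. The HC fold change had the opposite sign in 119 of the 126 and was of the same sign but smaller in 7. Picking genes by the difference of the effects favours opposite signs, and 0 of the 126 were called in HC. Of all genes called in PC, 35.2% of the risen and 32.2% of the fallen had the opposite sign in HC. LOC111889306 differed by -1.01 (SE 0.14, adjusted p = 0.000566): in HC it stood at 26.2, 24.8, 31.9 and 24.9 CPM under glass and at 23.6, 22.4, 29.1 and 25.6 CPM under the filter. LOC111895554 differed by 1.02 (SE 0.19, adjusted p = 0.00980), with 13.2, 12.9, 12.7 and 14.1 CPM under HC glass and 18.9, 17.8, 17.4 and 17.5 CPM under the HC filter. It was thus below glass in every PC filter plant and above glass in every HC filter plant, although its HC change of 0.41 was not called (adjusted p = 0.436).

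LOC111886104 differed by -4.53 (adjusted p = 0.0200), with near-zero levels under PC glass alone among the 4 groups compared. For LOC111897754, LOC111910637 and LOC111880112 the difference was not called, at adjusted p from 0.238 to 0.628 by edgeR's quasi-likelihood test. LOC111910637 had 12.4, 7.94, 8.79 and 6.12 CPM under HC glass and 14.0, 20.3, 24.5 and 16.7 CPM under the HC filter, a log2 difference of 1.12 (SE 0.45, adjusted p = 0.559). The interaction count was 42 without HC glass replicate 3, and 58 to 79 without PC glass replicate 1, 2 or 4, PC FTAZ:PCBM replicate 1 or 3, or HC FTAZ:PCBM replicate 1, 2 or 4.

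**Figure D5:**
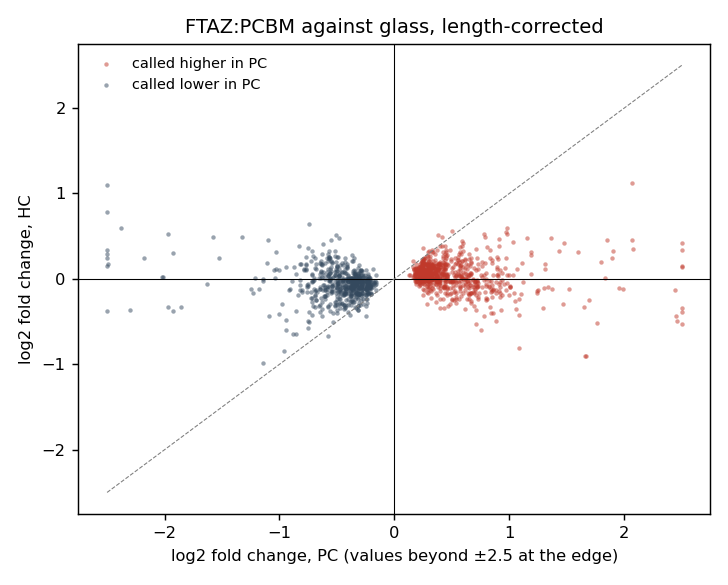
Length-corrected log2 fold change of FTAZ:PCBM against glass in PC (horizontal) and HC (vertical) for genes called higher (red, 765) or lower (blue, 611) in PC; the dashed line marks equal change, and 14 genes beyond the horizontal limit are drawn at the edge. Most points lie closer to zero in HC, with medians of 0.05 and -0.06, and picking the genes by their PC call favours this.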

How the data were processed

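Leaf poly-A RNA of 32 lettuce plants was sequenced, 4 in each of 8 groups taken from the sample labels; 8 libraries make the main comparison. The authors deposited raw counts per gene, made with featureCounts 2.0.1 on the exons of the RefSeq annotation of Lsat_Salinas_v7, per the file headers, with no option shown for strand, multi-mapping reads or pairs. HISAT2, FastQC and DESeq2 are listed in the submitters' processing notes, with versions not given in the sources used here. Exonic length is the length column of the deposited files.

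Genes passing edgeR's filterByExpr (minimum count 10, total 15; 24483 of 43717) were scaled by TMM. A lowess (span 0.5) of each library's log2 CPM deviation on log2 length gave an offset per gene and library. All 32 libraries were fitted with a mean per group by edgeR's quasi-likelihood test (edgeR 4.0.16, limma 3.58.1, R 4.3.3) with Benjamini-Hochberg adjustment over all tested genes, and a gene was called at an adjusted p under 0.05. The groups differed in common dispersion, 0.019 in PC glass and 0.0268 in PC FTAZ:PCBM, up to 0.0436 in another group of the fit. Standard errors were derived from F statistics. Slopes were compared by exact permutation (scipy 1.17.1). The methods were tested on simulated data that carried the length trends fitted here. Such data cannot show whether the correction suits the real libraries.

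Named genes follow the rule given with them, of which the 6 steepest rises, the 6 steepest falls and the 3 most abundant in each direction are described; any other gene is said to be chosen after its values were seen. Members, lists and tests were chosen with earlier results of these data known. RNA classes came from the RefSeq gene table of Lsat_Salinas_v11, matched by identifier for 23644 of the tested genes, and positions are those of the count files. Gene families by protein signature or product name and organelle protein-coding genes had no member that could be matched with the tables used here, so only chloroplast transfer and ribosomal RNA entries are given. Alternatives were no length offset, other spans and length bins, DESeq2's size factors and Wald test (DESeq2 1.42.0), other count filters, only the compared groups, a minimum fold change, the replicate number as a block, and leaving out each plant. The split by header letter was chosen after seeing the data.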

Additional observations from a re-analysis of the deposited data

Results flagged for a closer look

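In 48 named genes and 4 groups of 4 plants each, 12 of 192 sets of values held a plant whose gap to its nearest neighbour, as a share of the range, passed the critical value of Dixon, where chance gives about 9.60. The gap's share of the range was 0.934 for LOC111901320 in PC glass replicate 1 (5.25 CPM), 0.862 for LOC111916391 in PC FTAZ:PCBM replicate 4 (28.04 CPM) and 0.860 for LOC111916659 in PC FTAZ:PCBM replicate 1 (8.53 CPM). It was 0.913 for LOC111881631 in PC glass replicate 2 (28.3 CPM), 0.834 in PC FTAZ:PCBM replicate 4 (21.9 CPM) and 0.837 in HC glass replicate 3 (24.3 CPM). For LOC111900965 it was 0.876 in PC FTAZ:PCBM replicate 2 (1.49 CPM), and for LOC111903810 it was 0.851 in PC glass replicate 3 (2.27 CPM). In HC it was 0.917 for LOC111895550 in FTAZ:PCBM replicate 1 (56.5 CPM), 0.903 for LOC111898111 in FTAZ:PCBM replicate 2 (81.5 CPM), and, in glass replicate 3, 0.878 for LOC111911736 (38.2 CPM) and 0.862 for LOC111918243 (31.9 CPM).

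The effect of the filter differed between HC and PC in the interaction test of edgeR's quasi-likelihood model for 126 genes. Values are the HC effect minus the PC effect on the log2 scale. Among risen genes it was -4.53 for LOC111886104, -2.56 for LOC111906292, -1.98 for LOC111887747, -1.13 for LOC111879574, -1.04 for LOC111911736, -1.01 for LOC111889306 and -0.75 for LOC111918243. Among fallen genes it was 1.05 for LOC111913425, 1.02 for LOC111895554, 0.99 for LOC111895551, 0.66 for LOC111895550, 0.57 for LOC111881631 and 0.46 for LOC111906246.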

How the results depend on the processing

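The PC count of 1376 became 3847 with no length offset, 96 when a log2 change of at least 1 was asked, 388 and 432 with only the FTAZ:PCBM libraries without or with the header letter, and 719 to 1211 when a plant was left out. DESeq2's Wald test (1897), its size factors (1370), other spans and bins (1354 to 1384), no filter (1214), a mean CPM of at least 5 (1343) and only the compared groups (1203) stayed within 1.5 times. The HC count of 9 was 2 at the minimum fold change, 0 with only the compared groups (2145 at an unadjusted p under 0.05, edgeR), 46 with DESeq2, and 0 to 23 when a plant was left out. The 23 calls arose without HC glass replicate 4, with 15 higher and 8 lower, the opposite balance. The interaction count of 126 was 38 at the minimum fold change, 1127 without the offset, 258 with DESeq2, 52 and 51 without and with the header letter, and 42 to 141 when a plant was left out. The slope difference lay between 0.120 and 0.166 when a plant was left out, each with an exact permutation p of 0.0571, the smallest that 3 against 4 allows. For these changes the cause was not tested, apart from the fewer plants in some fits.

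The replicate numbers name different plants, and same-numbered PC plants deviated with correlations of 0.192, -0.121, -0.102 and -0.101. With the replicate block the counts were 1276 in PC, 11 in HC and 109 for the interaction. Reversed signs arose for LOC111898111 (0.36 without the offset) and for chloroplast entries that were never called: LasaCr001 (up to 0.28 when a plant was left out, lowest -0.58), LasaCr002 (-0.09 to 0.71 when a plant was left out, -0.23 without the header letter) and LasaCr007 (-0.53 to 0.10). Among the genes named by the rule, no sign changed under any alternative, and 160 of 171 other values and 89 of 144 with a plant left out kept their call. The rule asks for groups that do not overlap and for a call without the offset. The kept signs therefore largely followed from the rule, and so did the calls kept without the offset. Counts near the floor of 3 limit the weakest genes, and 4 plants a group limit the small changes.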
